A study of Mus musculus with 24 samples.

Results

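Pparg and Dgat1 are the 2 genes described here, out of 96 genes on a custom NanoString nCounter panel. They were taken by name from the deposited value table and followed across 6 groups of mice, and both had a value in all 24 samples. Each sample held regulatory T cells (Tregs) sorted as CD45+ CD4+ Foxp3(YFP)+ cells out of the visceral adipose tissue (VAT) of 1 C57/Bl6 male. Knockout (KO) mice carried Foxp3-YFP-Cre with Insr fl/fl, so that Cre made under Foxp3 removes the insulin receptor gene in Tregs. Control (Ctrl) mice carried Foxp3-YFP-Cre alone, so every group had the Cre allele. The labels add that this Cre line can also recombine outside Tregs, and that the mice were an F4 generation bred from F3 littermates. The 13-week groups began their diet at 3 weeks of age and were 16 weeks old at the end. They are named by weeks on diet, so 52 against 13 weeks below compares ages of 52 and 16 weeks. The diet rich in fat and sucrose (HFD) was given to 5 KO and 4 Ctrl mice, and normal chow (NCD) to 3 KO and 3 Ctrl mice. The oldest groups, 6 KO and 3 Ctrl mice, were kept on NCD until 52 weeks of age.

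Pparg encodes PPAR-gamma, a nuclear receptor that binds fatty acids and their derivatives and pairs with RXR on DNA. It is the master regulator of adipocyte formation, and in mouse VAT Tregs it is known as a factor that works with Foxp3 to set the adipose Treg expression programme, including genes of lipid uptake. Dgat1 encodes diacylglycerol O-acyltransferase 1, an enzyme of the endoplasmic reticulum that adds the last fatty acid in triglyceride synthesis, the step that lets a cell store fatty acids in lipid droplets. In the mouse assembly GRCm38.p6, Pparg lies at chr6:115360879-115490404 and Dgat1 at chr15:76502012-76512021. The part of each transcript that the panel's probe reads is not stated in the labels.

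The deposited values are nCounter signals on a linear scale, set by the authors to a panel total of 100000 in 12 samples and to a higher total, at most 126723, in the other 12. The totals followed genotype: the 12 samples at 100000 were all KO mice, and every Ctrl mouse was above 100000. The KO mice above it were replicate 2 on NCD at 13 weeks (100118) and replicate 1 at 52 weeks (100422). Ctrl mice on NCD at 13 weeks had 109979, 103368 and 126723. Rescaling every sample to the same total was among the alternatives. Signals within a sample were multiples of a common step, so the counts behind them could be recovered. Panel totals ran from 11446 to 224793 counts per mouse with a median of 49098, and the lowest median of a group was 20360 counts in KO mice on NCD at 13 weeks. InsR, the deleted gene, had a signal of 5.43 ± 3.04 in KO and 91.98 ± 31.7 in Ctrl mice on HFD (SD, n = 5 and 4), 10.5 ± 6.66 and 106.9 ± 49.7 on NCD at 13 weeks (n = 3 each), and 7.64 ± 5.85 and 388 ± 112 at 52 weeks (n = 6 and 3). As a check of the sort, the summed signal of Foxp3, CD25 and Helios, the 3 of 4 Treg markers measured, was 8411 to 11155 in KO and 5455 to 9803 in Ctrl mice on HFD, and 7942 to 9774 in KO and 10442 to 14361 in Ctrl mice on NCD at 13 weeks. At 52 weeks it was 598 to 4114 in KO and 3933 to 6650 in Ctrl mice. Lyz2, the 1 macrophage marker of 10 on the panel, was 198 to 6875 in KO and 132 to 4806 in Ctrl mice at 52 weeks. At 13 weeks it was at most 453. Igfbp7, the 1 stromal and endothelial marker of 8, was 2001 to 8571 in KO and 202 to 2143 in Ctrl mice at 52 weeks, and 17.1 to 1151 at 13 weeks. Of 6 adipocyte markers none was on the panel, although adipocytes express both genes.

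Pparg was lowest in both groups on HFD and highest in Ctrl mice on NCD at 13 weeks. On HFD, the KO mice had Pparg signals of 31.4, 123, 51.2, 56.5 and 38.7, and the Ctrl mice had 59.1, 19.7, 25.6 and 83.4. On NCD at 13 weeks, the KO mice had 172, 88.4 and 175, and the Ctrl mice had 219, 249.9 and 136. Replicate 2 of the KO mice on HFD stood above the rest of its group, within the range of the KO mice on NCD. At 52 weeks the 6 KO mice ran from 79.3 to 130.3 with a median of 97.1, and the 3 Ctrl mice had 167, 109 and 176. In order of mean log2(signal + 1), the groups ran from 5.35 in Ctrl on HFD, 5.77 in KO on HFD, 6.68 in KO at 52 weeks, 7.12 in KO on NCD at 13 weeks and 7.22 in Ctrl at 52 weeks to 7.62 in Ctrl on NCD at 13 weeks. The ranges of every pair of neighbours in this order overlapped. The gap of 0.91 between KO mice at 52 weeks and KO mice on HFD exceeded the SD of both groups (0.29 and 0.74), and each other gap was within the larger SD of its pair.

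**Figure D1:**
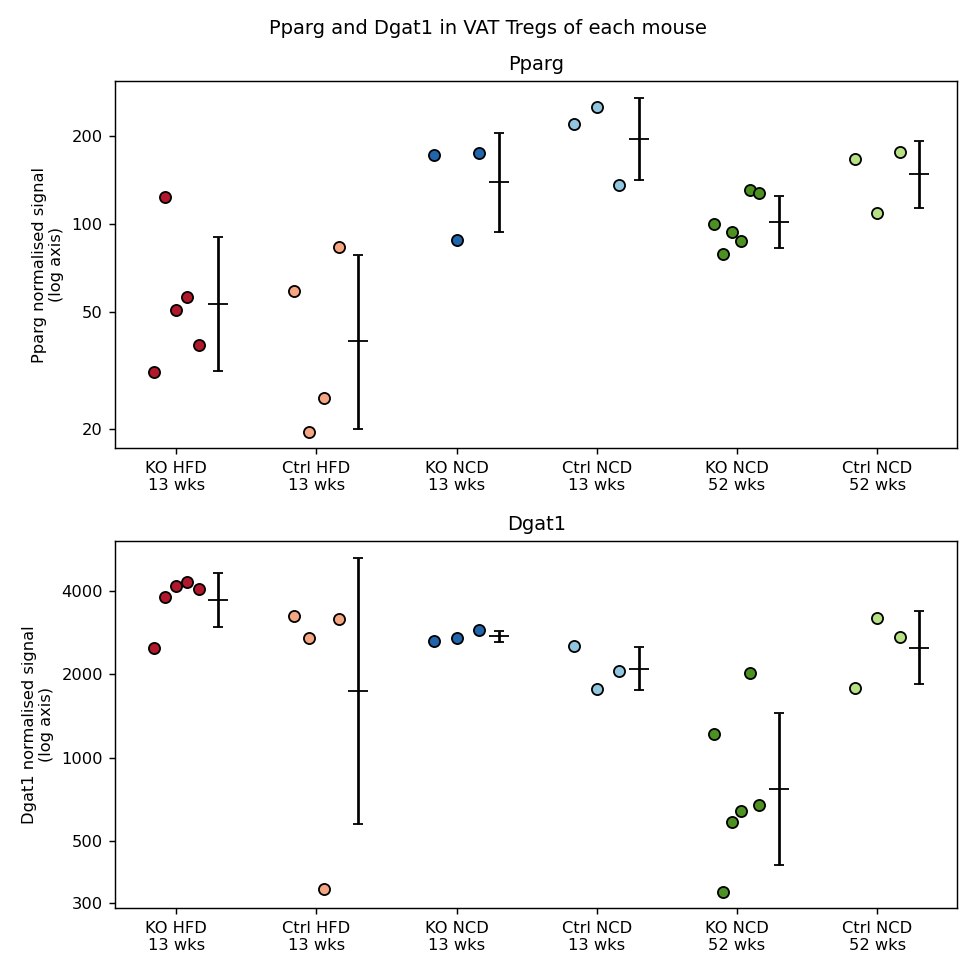
Normalised signal of Pparg (top) and Dgat1 (bottom) in VAT Tregs of each of the 24 mice, on log axes, by group, with the mean ± SD of log2(signal + 1) drawn beside the points. Pparg sits lowest in the HFD groups (19.7 to 123), and Dgat1 sits lowest in KO mice at 52 weeks (329 to 2024.5). That Dgat1 range also holds 1 Ctrl mouse on HFD (335), 1 on NCD at 13 weeks (1767) and 1 at 52 weeks (1782).

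The HFD groups were set against NCD within each genotype to ask how the diet bears on Pparg. In Ctrl mice Pparg fell: the signal averaged 46.9 ± 29.9 on HFD and 201.5 ± 59.1 on NCD (SD, n = 4 and 3), a log2 fold change of -2.26 on the log2(signal + 1) scale (SE 0.49, 95% interval -3.28 to -1.25, limma adjusted p = 0.0015), or 0.208 times the NCD level. All 4 Ctrl mice on HFD lay below all 3 on NCD. Of the 96 genes, 17.7% passed lower in this comparison and 31.2% had groups that did not overlap, with a median of all genes of -0.52. The 20 genes that passed in either direction included 3 higher ones, and after centring each sample on its median 18 passed, 6 of them higher, with a median of 0.10. Pparg then had -1.64 (adjusted p = 0.013). Pparg passed without any single mouse (log2 fold change -2.61 to -1.94), and Dgat1, in the same mice, did not pass. The Treg marker sums of these Ctrl mice, as deposited, did not overlap either, being lower on HFD. Their panel totals differed too, at 100071 to 104896 on HFD and 103368 to 126723 on NCD. Ctrl replicate 1 on NCD had a marker sum of 10442 at a total of 109979. Ctrl replicates 1 and 2 on HFD had sums of 9803 and 9793 at totals of 100159 and 100115. As shares of the total these 2 HFD mice lie above that NCD mouse, so the lack of overlap holds for the deposited values only. Of the 3 markers, CD25 had -2.46 (limma adjusted p = 0.0033), Foxp3 0.26 (adjusted p = 0.75) and Helios 0.51 (adjusted p = 0.42). Set against the summed markers, a scaling chosen after the data were seen, Pparg had -1.77 and no longer passed (adjusted p = 0.077). The part of the markers in the fall was not tested. Fewer cells of a type and less RNA per cell cannot be told apart in such bulk samples.

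In KO mice Pparg also fell on HFD, to 60.2 ± 36.6, against 145.0 ± 49.1 on NCD (SD, n = 5 and 3), with a log2 fold change of -1.36 (SE 0.47, 95% interval -2.32 to -0.39, limma adjusted p = 0.048). Of all genes, 17.7% passed in this comparison, every one of them lower, with a median of -0.46. After centring on the sample median 17 passed again, 5 of them higher, with a median of -0.03. Of the 5 KO mice on HFD, 4 lay below all 3 on NCD and replicate 2 did not. The call was lost without KO replicate 1, 3, 4 or 5 on HFD (-1.17, -1.34, -1.38 and -1.24) or replicate 1 or 3 on NCD (-1.20 and -1.19), with adjusted p up to 0.22, and in 10 of the 13 other settings, such as centring each sample on its median (-0.93, adjusted p = 0.17). The KO mice on NCD had 11446 to 23790 counts in total and those on HFD 34986 to 224793, and with log2 of the total as a covariate the value was -0.74 (adjusted p = 0.55). HFD minus NCD in KO mice minus the same in Ctrl mice was 0.91 on the log2 scale (SE 0.68, 95% interval -0.49 to 2.31), which did not pass (limma adjusted p = 0.61, with 0% of genes passing and 12 at an unadjusted p under 0.05), so a difference in the size of the fall between genotypes was not shown.

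Pparg was read from few counts. Recovered Pparg counts were 11, 123, 31, 61 and 87 in KO mice on HFD, 29, 30, 33 and 20 in Ctrl mice on HFD, 35, 21 and 20 in KO mice on NCD at 13 weeks, and 69, 42 and 152 in Ctrl mice on NCD at 13 weeks. At 52 weeks they were 26 to 135 in KO and 48 to 156 in Ctrl mice. Ctrl replicates 1, 2 and 3 on HFD had 29, 30 and 33 Pparg counts at panel totals of 49173, 152648 and 135329, so in these mice the count did not follow depth. The level of the panel's background is not stated in the labels, and its part in the low signals on HFD was not tested. With the counts fitted by limma's voom, Ctrl mice on HFD against NCD had a log2 fold change of -2.27 (adjusted p = 0.0023).

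**Figure D2:**
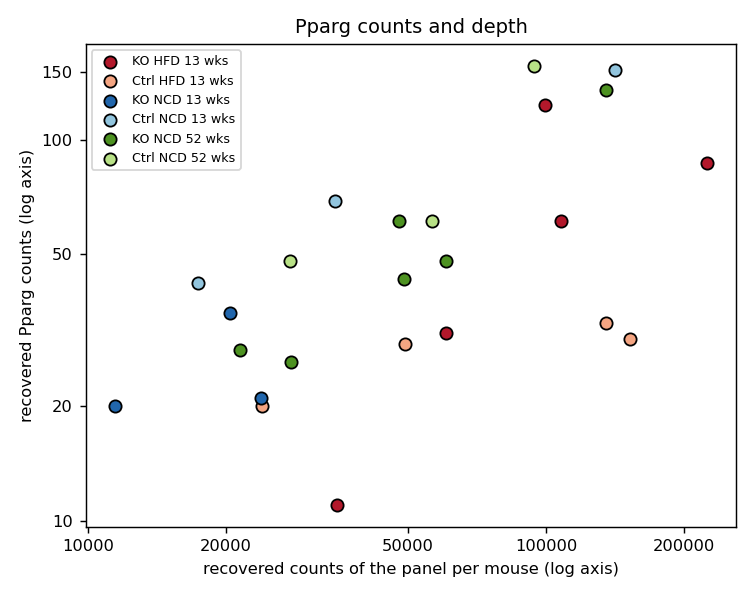
Recovered Pparg counts of each mouse (vertical, log axis) against the total recovered counts of its panel (horizontal, log axis), coloured by group. Ctrl mice on HFD have 20 to 33 counts over totals from 24005 to 152648, and Ctrl mice on NCD at 13 weeks have 42 to 152 over totals from 17371 to 141932.

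Deletion of the insulin receptor was not accompanied by a Pparg difference that passed in any setting. On HFD the KO minus Ctrl difference was 0.42 on the log2 scale (SE 0.43, 95% interval -0.47 to 1.30, limma adjusted p = 0.69), where 2.08% of genes passed. On NCD at 13 weeks it was -0.49 (SE 0.52, interval -1.57 to 0.59, adjusted p = 0.82), where 5.21% of genes passed. At 52 weeks Pparg averaged 103.2 ± 21.2 in KO and 150.8 ± 36.3 in Ctrl mice (SD, n = 6 and 3), with 4 of the 6 KO mice below all 3 Ctrl mice. The log2 difference was -0.54 (SE 0.45, interval -1.47 to 0.40, adjusted p = 0.38), in a comparison where 20.8% of genes passed lower and the median gene was at -0.60. After centring on the sample median it was 0.34, the other way. The intervals are wide, down to 0.336 times the Ctrl level on NCD, so they do not show that the genotypes were alike.

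With age, Pparg showed no difference on NCD that passed in the main fit. At 52 against 13 weeks, thus at ages of 52 and 16 weeks, the log2 difference was -0.45 in KO mice (SE 0.45, limma adjusted p = 0.44). In Ctrl mice it was -0.40 (SE 0.52, adjusted p = 0.70). In KO mice 54.2% of genes passed in this comparison, and in Ctrl mice 5.21%. The sign in KO mice turned in 3 of 13 other settings. Of these, the scaling to Treg markers described below gave 2.24 (adjusted p = 0.0028). Set against HFD at 13 weeks, which differs in both age and diet so that the 2 cannot be told apart, Ctrl mice at 52 weeks had higher Pparg. The signal averaged 150.8 ± 36.3 at 52 weeks and 46.9 ± 29.9 on HFD (SD, n = 3 and 4), a log2 fold change of 1.86 (SE 0.49, 95% interval 0.85 to 2.87, limma adjusted p = 0.0048). All 3 mice at 52 weeks lay above all 4 on HFD. Of all genes, 25.0% passed higher here and 41.7% had groups that did not overlap. This was 24 higher genes of 36 that passed, against 19 of 41 after centring on the sample median and 35 of 39 after centring on 4 reference genes. The 4 Ctrl mice on HFD also served in the comparison with NCD above. In KO mice the same comparison gave 0.91 (SE 0.39, interval 0.11 to 1.71), just short of the threshold (adjusted p = 0.051), in a comparison where 53.1% of genes passed. Pparg passed there without KO replicate 2 on HFD (1.21, adjusted p = 0.011) and without KO replicate 2 at 52 weeks (0.98, adjusted p = 0.0497).

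Dgat1 had another order of groups, with KO mice at 52 weeks lowest and KO mice on HFD highest. On HFD, the KO mice had Dgat1 signals of 2498, 3814, 4179.8, 4320.4 and 4073, and the Ctrl mice had 3245, 2699.5, 335 and 3172. Ctrl replicate 3 on HFD, at 335, was far below the other Ctrl mice of its group, with 432 Dgat1 counts of 135329. On NCD at 13 weeks, the KO mice had 2642, 2698 and 2892, and the Ctrl mice had 2528, 1767 and 2064. At 52 weeks, the KO mice had 1216, 329, 588, 643, 2024.5 and 677, with a median of 659.8, and the Ctrl mice had 1782, 3202 and 2724. KO replicate 5 at 52 weeks was the 1 of 6 within the range of the aged Ctrl mice. In order of mean log2(signal + 1), the groups ran from 9.59 in KO at 52 weeks, 10.77 in Ctrl on HFD, 11.03 in Ctrl on NCD at 13 weeks, 11.29 in Ctrl at 52 weeks and 11.42 in KO on NCD at 13 weeks to 11.86 in KO on HFD. Every pair of neighbours overlapped. The gap of 0.44 between KO mice on HFD and on NCD at 13 weeks exceeded the SD of both groups (0.33 and 0.068), and each other gap was within the larger SD of its pair. Dgat1 was read from 163 to 9155 counts per mouse.

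At 52 weeks Dgat1 was lower in KO than in Ctrl mice. The signal averaged 913 ± 617 in KO and 2569 ± 722 in Ctrl mice (SD, n = 6 and 3), a log2 fold change of -1.70 (SE 0.58, 95% interval -2.90 to -0.49, limma adjusted p = 0.034), or 0.309 times the Ctrl level. Of the 6 KO mice, 5 lay below all 3 Ctrl mice. In this comparison 20.8% of genes passed lower and the median gene was at -0.60. Of the 23 genes that passed 3 were higher, but after centring on the sample median 14 of 16 were higher, with a median gene at 0.27. That centring left Dgat1 at -0.82 (adjusted p = 0.27), fitting the 9 aged mice alone gave adjusted p = 0.082, and the call was lost without KO replicate 2, 3 or 4 (-1.45, -1.62 and -1.64) or Ctrl replicate 1, 2 or 3 (-1.94, -1.52 and -1.63), with adjusted p up to 0.16.

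Dgat1 was also lower in KO mice at 52 weeks than in younger KO mice. Against KO mice on NCD at 13 weeks, where it averaged 2744 ± 131 (SD, n = 3), the log2 fold change was -1.83 (SE 0.58, 95% interval -3.04 to -0.63, limma adjusted p = 0.014). All 6 older mice lay below all 3 younger ones, in a comparison where 41.7% of genes passed lower and 33.3% had groups that did not overlap. Against KO mice on HFD, where it averaged 3777 ± 739 (SD, n = 5), the log2 fold change was -2.27 (SE 0.50, interval -3.30 to -1.24, adjusted p = 0.00060), again with no overlap. Here 30.2% of genes passed lower and 32.3% had groups that did not overlap. Centring on the sample median raised the higher share of the genes that passed, to 16 of 32 against NCD (12 of 52 without it) and to 34 of 60 against HFD (22 of 51 without it). These comparisons share the same 6 KO mice at 52 weeks, and both passed without any single mouse (adjusted p at most 0.043 and 0.0021). The call against NCD was lost after centring on the sample median (-1.07, adjusted p = 0.14) or on 4 reference genes (-1.25, adjusted p = 0.16).

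The low Dgat1 of the aged KO mice came with low Treg markers. The summed signal of Foxp3, CD25 and Helios was 1957, 598, 1801, 1263, 4114 and 623 in replicates 1 to 6, whose Dgat1 signals are given above. Replicates 5 and 1 were highest in both measures and replicate 2 was lowest in both. The other 3 mice ran the other way: replicate 6, with a marker sum of 623, had the most Dgat1 of them (677), and replicate 3, with 1801, had the least (588). Of 6 core Treg genes measured, 3 passed lower in KO against Ctrl mice at 52 weeks, where 20.8% of all genes passed lower. These were the same Foxp3, CD25 and Helios that make up the sum, so they add no separate evidence. The 6 genes, these 3 included, had a median of -1.38 against -0.60 for all genes. Set against the summed signal of these 3 markers, the KO minus Ctrl difference of Dgat1 at 52 weeks was 0.23 (adjusted p = 0.75), the difference between 52 and 13 weeks in KO mice was 0.85 (adjusted p = 0.14) and that between 52 weeks and HFD 0.53 (adjusted p = 0.25). Relative to the markers, Dgat1 in the aged KO mice was thus not lower in any of the 3 comparisons. This setting was chosen after the data were seen, and it moves the median of all genes as well, to 1.33, 1.86 and 2.89 in the 3 comparisons. Dgat1 lay below that median in each, so the upward shift is not particular to Dgat1. Igfbp7 was high in these mice too, as given above. Lyz2 was higher in KO mice at 52 than at 13 weeks on NCD (log2 difference 2.96, limma adjusted p = 0.028). Replicates 1 and 3, at 198 and 411, lay within the 13-week range. Against Ctrl mice at 52 weeks Lyz2 had -0.20 (limma adjusted p = 0.92), with medians of 1255 in KO and 2937 in Ctrl mice. The part of Lyz2 and Igfbp7 in the Dgat1 difference was not tested.

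**Figure D3:**
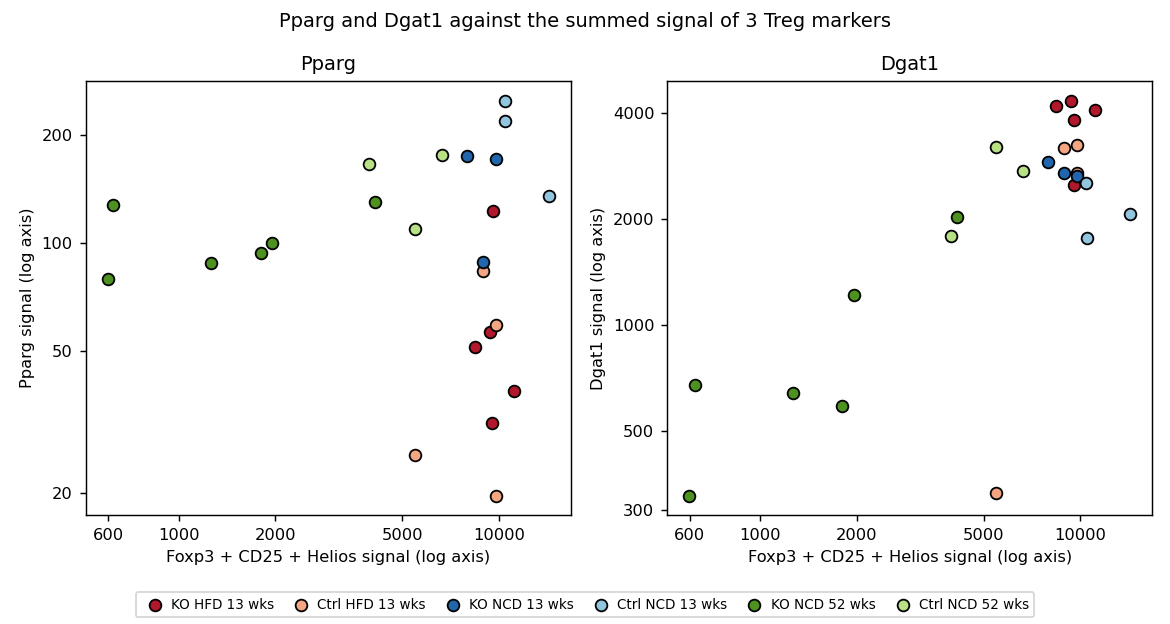
Signal of Pparg (left) and Dgat1 (right) of each mouse against the summed signal of Foxp3, CD25 and Helios, all on log axes, coloured by group. KO mice at 52 weeks have the lowest marker sums (598 to 4114) and low Dgat1, Ctrl replicate 3 on HFD has low Dgat1 (335) at a marker sum of 5455, and Pparg is lowest in HFD mice, whose marker sums are 5455 to 11155.

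For Pparg the same scaling moved the values of the aged KO mice up. Set against the 3 markers, Pparg in KO mice at 52 weeks was 2.24 log2 units above NCD at 13 weeks (adjusted p = 0.0028), and 3.71 above HFD (adjusted p = 1.18e-06). The KO minus Ctrl difference at 52 weeks was then 1.39 (adjusted p = 0.060). Much of each rise was shared by the panel, since the medians of all genes, given above, moved up in the same comparisons. Against HFD, most genes of the panel were called under this scaling, so the rises are not particular to Pparg. In Ctrl mice at 52 weeks against HFD Pparg had 2.52 under this scaling (limma adjusted p = 0.0039) and 1.86 in the main fit. That upward move is likewise shared by every gene of the panel.

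In the 13-week mice no Dgat1 difference passed. On HFD the KO mice averaged 3777 ± 739 and the Ctrl mice 2363 ± 1373 (SD, n = 5 and 4), a log2 difference of 1.08 (SE 0.55, 95% interval -0.06 to 2.23, limma adjusted p = 0.40). Without Ctrl replicate 3 it was 0.29. On NCD the averages were 2744 ± 131 in KO and 2120 ± 383 in Ctrl mice (SD, n = 3 each), and all 3 KO mice lay above all 3 Ctrl mice. Groups that did not overlap were found for 24% of genes there, and the log2 difference of 0.39 (SE 0.67, interval -1.005 to 1.78) did not pass (adjusted p = 0.93). HFD minus NCD was 0.44 in KO mice (SE 0.60, adjusted p = 0.67) and -0.26 in Ctrl mice (SE 0.63, adjusted p = 0.77), the last turning to 0.53 without Ctrl replicate 3 on HFD. In Ctrl mice at 52 weeks Dgat1 differed by 0.25 from NCD at 13 weeks (SE 0.67, adjusted p = 0.86) and by 0.51 from HFD (SE 0.63, adjusted p = 0.55), the last turning to -0.28 without the same mouse.

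The genotype difference of Dgat1 was itself compared between settings. At 52 weeks it was 2.78 log2 units below that on HFD (value -2.78, SE 0.80, 95% interval -4.44 to -1.12, limma adjusted p = 0.026), with -1.70 at 52 weeks and 1.08 on HFD. Of all genes, 11.5% passed lower in this comparison, and 1 of the 12 that passed was higher, against 7 of 8 after centring on the sample median. Without Ctrl replicate 2 or 3 at 52 weeks the call was lost (-2.60, adjusted p = 0.074, and -2.72, adjusted p = 0.091), as it was after centring on the sample median (-1.95, adjusted p = 0.081) and when set against the Treg markers (-0.65, adjusted p = 0.46). Without Ctrl replicate 3 on HFD, the mouse with the low Dgat1, it was -1.99 (adjusted p = 0.035). Against NCD at 13 weeks the genotype difference at 52 weeks was lower by 2.08 (value -2.08, SE 0.89), which did not pass (adjusted p = 0.16). Of the 96 genes 0% passed in that comparison by limma, while 26 had an unadjusted p under 0.05, Dgat1 among them. For Pparg the genotype difference at 52 weeks minus that on HFD was -0.95 (SE 0.62, adjusted p = 0.31), and minus that on NCD -0.04 (SE 0.69, adjusted p = 0.96).

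**Figure D4:**
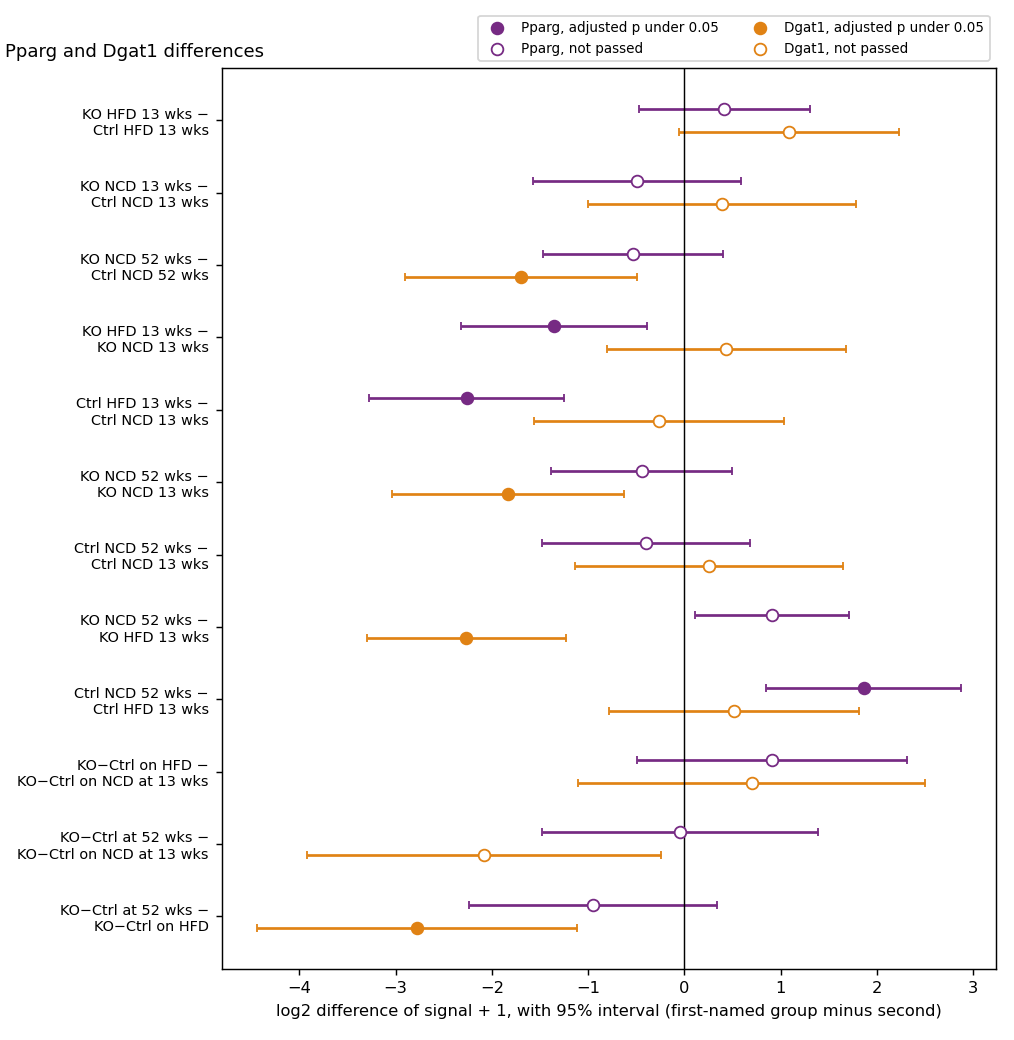
Log2 differences of Pparg and Dgat1 for the 12 comparisons, as the group named first minus the group named second on the log2(signal + 1) scale, with 95% intervals; filled points passed at a limma adjusted p under 0.05 over the 96 genes. Pparg passed in the 2 diet comparisons and in Ctrl mice at 52 weeks against HFD, and Dgat1 passed in the 3 comparisons of KO mice at 52 weeks with another group and in the genotype difference at 52 weeks minus that on HFD.

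The pair did not move together across groups. In Ctrl mice on HFD against NCD Pparg fell by 2.26 on the log2 scale and Dgat1 had -0.26, and in KO mice at 52 weeks against HFD Dgat1 fell by 2.27 and Pparg had 0.91. The change of Pparg minus that of Dgat1, which no scaling of whole samples can alter, was -2.0 in the first case and 3.18 in the second. Over the 24 mice log2 values of the pair had Pearson's r = 0.05 (permutation p = 0.80) and Spearman's rho = -0.15 (permutation p = 0.48), and r = -0.14 without the 2 mice farthest from the Pparg median. After each group's mean was subtracted r was 0.37 (permutation p = 0.077) and rho 0.33 (permutation p = 0.12). The relation depended on the scaling. After centring on the sample median r was -0.28 (permutation p = 0.18), rho -0.49 (permutation p = 0.016) and r -0.63 without the 2 farthest mice, and after centring on 4 reference genes r was 0.23 (permutation p = 0.28) and rho 0.063 (permutation p = 0.77). These p-values, for 1 pair of genes under several scalings, were not adjusted, and both values of a mouse share its scaling and depth.

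**Figure D5:**
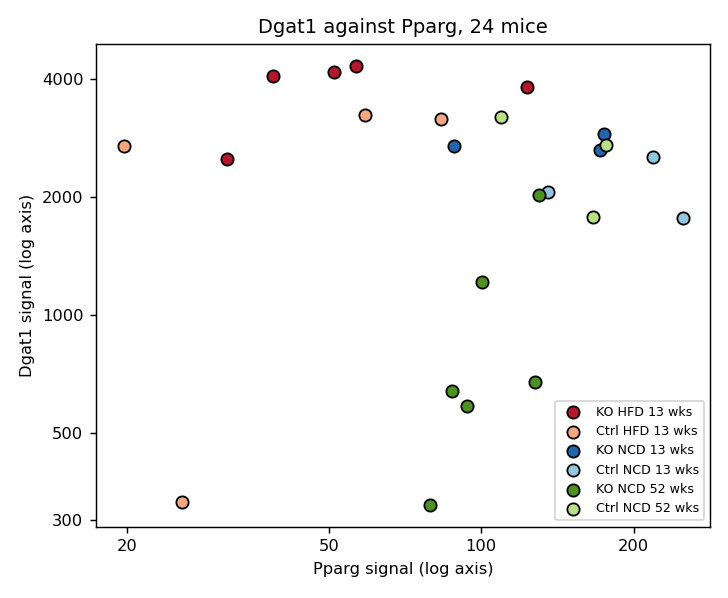
Dgat1 signal against Pparg signal of the 24 mice, both on log axes, coloured by group. HFD mice spread to the left at high Dgat1 and KO mice at 52 weeks spread downward at middle Pparg, apart from Ctrl replicate 3 on HFD, which is low in both.

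The genes most like each of the pair were found by the SD over the 24 mice of the log2 difference between the gene and Pparg or Dgat1, which does not depend on how samples are scaled. For Pparg these were S100a4 (SD 0.50), Nr4a1 (0.71), Furin (0.74), Il10ra (0.80) and Gadd45b (0.86), against a median of 1.37 over the panel, and Dgat1 ranked 56 at 1.44. S100a4, a calcium-binding protein of the S100 family, had log2 differences of -2.51 in Ctrl and -1.19 in KO mice on HFD against NCD, and 1.65 in Ctrl mice at 52 weeks against HFD. For Dgat1 the nearest were Rgs2 (0.71), Tnfrsf9 (0.74), TGFb (0.76), Gata3 (0.79) and Pdcd1 (0.84), against a median of 1.62, and Pparg ranked 37. Of these 5, Pdcd1, the inhibitory receptor PD-1, had a log2 difference of -1.91 in KO against Ctrl mice at 52 weeks. These genes were chosen for their likeness over the same 24 mice, so their differences are a description and no test.

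Lipid genes were few on the panel. Of 36 genes of lipid uptake, storage and oxidation 3 were measured: the pair and Plin2, which coats lipid droplets. Plin2 passed in none of the 12 comparisons. In Ctrl mice it ran from 81.4 to 1909 on HFD with a median of 704, and from 91.99 to 196 on NCD at 13 weeks with a median of 93.7 (n = 4 and 3), a log2 difference of 2.02 (SE 1.00, limma adjusted p = 0.16), in the mice in which Pparg fell. In KO mice at 52 weeks it was 4865 in replicate 6 and 242 to 973 in the other 5, with a median of 525. KO mice on HFD ran from 57.8 to 884 with a median of 147 (n = 6 and 5). The log2 difference was 1.86 (SE 0.79, limma adjusted p = 0.052), where Dgat1 fell. Replicate 6 at 52 weeks also had the highest Lyz2 of all mice (6875) and a low Treg marker sum (623). Their part in its Plin2 signal was not tested.

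Of 26 genes known for VAT Tregs 18 were measured, the pair included. On HFD against NCD 7 of the 18 passed lower and none higher in Ctrl mice, where 17.7% of all genes passed lower, with a median of -1.54 against -0.52 for all genes. Beside Pparg these included Il1rl1, the IL-33 receptor (-2.73), Klrg1 (-4.42) and IL-10 (-2.16). In KO mice 6 passed lower and none higher, where again 17.7% of all genes passed lower, with a median of -0.81 against -0.46, among them Pparg, Ccr1 (-3.19) and Ccr3 (-3.61), chemokine receptors. In Ctrl mice at 52 weeks against HFD 8 passed higher and none lower, where 25.0% of all genes passed higher, with a median of 1.26 against 0.41, among them Pparg, IL-10 (3.09) and Irf4 (2.04), a transcription factor of effector Tregs. In KO against Ctrl mice at 52 weeks 7 passed lower and none higher, where 20.8% of all genes passed lower, with a median of -1.24 against -0.60. Dgat1 was 1 of these 7, with Il1rl1 (-2.62), IL-10 (-2.07) and Areg (-1.84), a growth factor of tissue repair, whereas Pparg did not pass. On NCD at 13 weeks 1 of the 18 passed lower in KO mice, Ccr2 (-2.21), where 5.21% of all genes passed in either direction, and on HFD none passed, where 2.08% did.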

How the data were processed

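RNA of sorted VAT Tregs from 24 mice was counted by nCounter SPRINT. The authors deposited a table of 96 genes as linear signal, which they scaled to a panel total, as read from the values; the labels name no background correction and no software. Of 2304 values, 2302 were whole multiples of a step per sample within 0.02 of a count, which gave recovered counts; 5 values were 0. Groups came from sample titles. limma 3.58.1 in R 4.3.3 fitted 6 group means to log2(signal + 1) in 24 samples, without a filter. Two-sided p-values of 12 contrasts were adjusted by Benjamini-Hochberg over 96 genes each, with a threshold of 0.05. The fit was tested on simulated data. Panel names matched a mouse symbol for 88 genes, a synonym for 4, several symbols for 1 (TGFb) and none for 3. Permutation tests used 100000 resamples in scipy 1.17.1. The alternatives were pseudocounts of 0.1 and 10, leaving out the 24 weakest genes, centring (sample median, 4 reference genes), rescaling, fitting only the groups compared, array weights, a variance trend, a replicate block, total count as a covariate and leaving out each mouse; voom and centring on Treg markers were added after seeing the data. The named genes were Pparg, Dgat1, the 5 genes most like each and members of the lists. The genes and lists were chosen with earlier results of these data known.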

Additional observations from a re-analysis of the deposited data

Results flagged for a closer look

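Dgat1 in Ctrl replicate 3 on HFD had a signal of 334.85, and its gap to the next of the 4 mice was 0.919 of the range on the log2 scale (Dixon's critical value 0.829). This mouse also had the lowest Foxp3, CD25 and Helios sum of the 13-week mice, 5455, and the highest Lyz2, 453. Dgat1 in KO replicate 1 on HFD had a signal of 2498.14, the lowest of 5, with a gap of 0.772 of the range (critical value 0.71). The test was made in 6 sets of values, and chance flags about 1 in 20.

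The genotype difference of Dgat1, KO minus Ctrl, differed between 52 weeks and HFD by -2.78 on the log2 scale (limma adjusted p = 0.026), as reported above. Ctrl replicate 3 on HFD enters this value, which was -1.99 without it.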

How the results depend on the processing

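Of 555 recomputed values, 486 kept their direction and their side of the threshold, 32 lost the call, 8 gained one and 29 changed sign; the cause was not tested. Pparg in Ctrl mice at 52 weeks against HFD passed in every alternative (1.36 to 2.57). Centring on the sample median gave Dgat1 -0.82 for KO against Ctrl at 52 weeks, -1.07 for KO at 52 against 13 weeks, -1.95 for the genotype difference at 52 weeks against HFD and 0.36 for Ctrl on HFD against NCD, gave Pparg -0.93 for KO on HFD against NCD, 1.25 for KO at 52 weeks against HFD, 0.34 for KO against Ctrl at 52 weeks, 0.32 for KO at 52 against 13 weeks and 0.60 for the genotype difference at 52 weeks against NCD, and gave the pair r = -0.28. Centring on 4 reference genes gave Dgat1 -1.25 for KO at 52 against 13 weeks, and Pparg -0.999 for KO on HFD against NCD, 0.14 for KO at 52 against 13 weeks, 1.14 for KO at 52 weeks against HFD and 0.17 for the genotype difference at 52 weeks against NCD. Centring on 3 Treg markers gave Dgat1 0.23 for KO against Ctrl at 52 weeks, 0.85 for KO at 52 against 13 weeks, 0.53 for KO at 52 weeks against HFD, -0.65 for the genotype difference at 52 weeks against HFD and 0.23 for Ctrl on HFD against NCD. It gave Pparg -1.77 for Ctrl and -1.47 for KO on HFD against NCD, 1.39 for KO against Ctrl at 52 weeks, 2.24 for KO and 0.75 for Ctrl at 52 against 13 weeks, 3.71 for KO at 52 weeks against HFD, and 1.48 and 1.18 for the genotype difference at 52 weeks against NCD and HFD. Pparg in KO mice on HFD against NCD was also lost after rescaling to 1 total (-1.36), with only its groups (-1.36), array weights (-0.96), a variance trend (-1.36), the total count as covariate (-0.74) and voom (-1.27). Only the groups compared gave Dgat1 -1.70 for KO against Ctrl at 52 weeks and -2.78 for the genotype difference at 52 weeks against HFD, both lost, and Pparg 0.91 for KO at 52 weeks against HFD, gained, as it was without the 24 weakest genes (0.91). Array weights gave Dgat1 0.24 for Ctrl on HFD against NCD, -0.015 for Ctrl at 52 weeks against HFD and -2.34 (gained) for the genotype difference at 52 weeks against NCD; for Pparg that difference was 0.10, and 0.27 with the total count as covariate.

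Leaving out single mice gave Dgat1 -1.98 to -1.45 for KO against Ctrl at 52 weeks, -3.08 to -1.99 for the genotype difference at 52 weeks against HFD, -0.095 to 0.996 for that on HFD against NCD, -0.56 to 0.53 for Ctrl on HFD against NCD and -0.28 to 0.81 for Ctrl at 52 weeks against HFD. It gave Pparg -1.68 to -1.17 for KO on HFD against NCD, 0.72 to 1.21 for KO at 52 weeks against HFD and -0.37 to 0.22 for the genotype difference at 52 weeks against NCD. With a replicate block Pparg in KO mice on HFD against NCD had -1.46 (adjusted p = 0.075), and no other call changed. Same-numbered KO and Ctrl mice had correlations of their deviations between -0.248 and 0.168, so the numbers did not pair the mice. The planned edgeR fit was not run, since the deposited values are scaled signal. Depth limits Pparg most, with 11 to 156 counts per mouse against 163 to 9155 for Dgat1. Counts of genes that passed moved by over 1.5 times as follows. HFD against NCD called 17 in KO mice, but 28 with array weights, 8 after centring on reference genes and 1 with the total count as covariate, and 20 in Ctrl mice, but 9 on Treg markers. KO at 52 weeks called 52 against NCD but 32 after median and 33 after reference centring, and 51 against HFD but 79 on Treg markers. KO against Ctrl at 52 weeks called 23, but 46 with array weights, 42 on Treg markers and 5 with only its groups, and 2 on HFD and 5 on NCD, but 5 and 8 with array weights. Ctrl at 52 against 13 weeks called 5, but 19 with array weights. The genotype difference at 52 weeks called 12 against HFD but 35 with array weights, and 0 against NCD but 23; that on HFD against NCD called 0 but 7.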
